A study of Homo sapiens with 9 samples.

Results

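The NDUF genes, which code for nuclear-encoded subunits and assembly factors of mitochondrial complex I, were followed in Y79 cells, an established human retinoblastoma line. The members were all genes with at least 1 probe set annotated to exactly 1 symbol that starts with NDUF, antisense and pseudogene symbols left out. They came to 44 genes with 92 probe sets, of 18132 genes and 49395 probe sets on the array. Of the 44 genes, 6 code for core subunits (15 probe sets), 30 for accessory subunits (59 probe sets) and 8 for assembly factors named NDUFAF (18 probe sets). A further 3 probe sets that name an NDUF gene together with other genes were left out. The former accessory subunit NDUFA4, its relative NDUFA4L2 and the read-through NDUFC2-KCTD14 are not analysed here.

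There were 3 groups of 3 arrays, all of the same line grown in RPMI medium. The first group was given gold nanoparticles conjugated with an HDM2 peptide (the conjugate), the second bare gold nanoparticles, and the last was left untreated. HDM2 is the human protein that binds p53 and marks it for breakdown. No source used here states the dose, the time of exposure or whether the arrays of a group came from separate cultures. The p-values therefore speak of the spread among these arrays alone, and that spread may be technical. RNA came from whole cultures, in which fewer cells of a kind and less RNA per cell cannot be told apart.

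Complex I is the entry point of the respiratory chain. Its matrix arm takes electrons from NADH over a flavin and a chain of iron-sulfur clusters to ubiquinone, and its membrane arm pumps protons. The core subunits carry out this chemistry and are shared with bacteria, with part of them coded by nuclear genes and part by mitochondrial DNA. The accessory subunits form a shell that stabilises the complex, and the assembly factors help to build it without staying in the finished enzyme. Photoreceptors, the lineage that Y79 cells resemble, are rich in mitochondria.

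The promoters of 39 of the 44 genes were found in the RefSeq table (GRCh38.p14), as 250 bases before to 50 bases after the annotated start, and were searched on both strands for motifs of factors known to drive respiratory genes. The 4 shown here differ in behaviour on the arrays, as described with each gene, and hold 1 or more of the motifs, which are in capitals. The sequences run 5′ to 3′ on the strand of the gene.
NDUFS1, chr2:206159395-206159694, minus strand: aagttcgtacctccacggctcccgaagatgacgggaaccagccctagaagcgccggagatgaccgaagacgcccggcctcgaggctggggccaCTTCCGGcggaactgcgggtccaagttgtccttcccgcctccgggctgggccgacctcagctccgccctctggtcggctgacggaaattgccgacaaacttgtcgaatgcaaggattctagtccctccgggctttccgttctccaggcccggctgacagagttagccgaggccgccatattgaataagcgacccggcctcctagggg
NDUFS7, chr19:1383657-1383956, plus strand: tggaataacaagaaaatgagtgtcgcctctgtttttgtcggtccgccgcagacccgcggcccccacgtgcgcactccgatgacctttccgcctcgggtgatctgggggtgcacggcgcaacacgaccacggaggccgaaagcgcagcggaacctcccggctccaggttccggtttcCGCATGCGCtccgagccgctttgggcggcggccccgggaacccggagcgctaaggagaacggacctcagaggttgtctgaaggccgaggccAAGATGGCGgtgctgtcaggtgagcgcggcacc
NDUFA8, chr9:122159730-122160029, minus strand: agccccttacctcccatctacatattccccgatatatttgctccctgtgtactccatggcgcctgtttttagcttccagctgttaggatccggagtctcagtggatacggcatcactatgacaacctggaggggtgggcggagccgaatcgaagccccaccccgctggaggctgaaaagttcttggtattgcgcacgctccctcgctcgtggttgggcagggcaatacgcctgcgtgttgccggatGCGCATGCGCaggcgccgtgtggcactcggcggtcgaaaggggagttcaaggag
NDUFB8, chr10:100529822-100530121, minus strand: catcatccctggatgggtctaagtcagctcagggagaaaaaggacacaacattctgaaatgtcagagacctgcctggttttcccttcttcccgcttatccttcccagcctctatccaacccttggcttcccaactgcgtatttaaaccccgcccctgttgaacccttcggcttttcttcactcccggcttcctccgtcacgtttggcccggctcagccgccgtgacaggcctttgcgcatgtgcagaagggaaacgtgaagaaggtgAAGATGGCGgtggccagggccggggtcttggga
NDUFS1 holds the ETS family motif CCGGAAG (read on the other strand), NDUFS7 the NRF1 motif GCGCATGCG (also on the other strand) and the YY1 motif AAGATGGCG, NDUFA8 the NRF1 motif, which overlaps its own reverse complement, and NDUFB8 the YY1 motif.
NDUFS1 and NDUFB8 each have another annotated start, whose promoter held 0 matches. Over the 39 members, the NRF1 motif was in at least 1 promoter of 6 genes (15.4%), against 2.34% of the 27305 genes in the table. The YY1 motif was in 7 (17.9%), against 2.14% of the table, and in these members it lay from 9 to 25 bases after the start. The ETS motif was in 7 (17.9%), against 12.2%, and the ESRRA motif TCAAGGTCA in 0, against 0.432%. A match describes letters and is not a measured binding site.

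The deposited values are differences on a log scale, taken as log2, from a baseline of each probe set, and hold no absolute level. The probe sets of a gene were averaged, all 18132 genes were tested together with limma, and a gene was called where its Benjamini-Hochberg adjusted p was under 0.05. Probe sets were also placed in classes of baseline level (bright, middle and dim) read from the step size of the stored numbers. Arrays of the conjugate group stood apart from the rest in a way that followed these classes: over all probe sets the median difference between conjugate and untreated arrays was -1.19 for bright, 0.12 for middle and 0.51 for dim probe sets. Added hybridization controls averaged 1.68 ± 0.30 on conjugate arrays, -0.12 ± 0.37 on bare particle arrays and -0.38 ± 0.05 on untreated arrays (SD, n = 3 each, 18 probe sets). Poly-A controls averaged 1.16 ± 0.39, -0.17 ± 0.29 and -0.55 ± 0.60 in the same order (SD, n = 3 each, 27 probe sets). Genes are therefore also given after each array was centred on its median within each level class, called the level-centred value. Of the photoreceptor markers, 12 were measured, of which 6 had a bright probe set. Of the markers of blood (4), fibroblasts (5) and pigment epithelium (4), 0 had a bright one, and of 4 markers of Mueller glia 1 did. The part of the controls and of the level classes in the results below was not tested beyond this centring.

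With the conjugate, 20 of the 44 NDUF genes were lower than in untreated cells and 1, NDUFA13, was higher (limma), against 25.1% of all genes called lower and 33.1% called higher. The lower genes were 45.5% of the members, and 42 of the 44 differences were negative, against 7305 of all 18132 genes. These shares of all genes are not matched for baseline level. Of the member probe sets 67.4% were bright, against 17.7% of all probe sets, and 60.9% of all bright probe sets were called lower. From bright probe sets alone, 57.8% of all genes were called lower, with a median difference of -1.13. The median difference of the members was -0.72, against 0.25 for all genes, with a range from -1.96 (NDUFS1) to 0.62 (NDUFA13). The 3 conjugate arrays lay below all 3 untreated arrays for 18 genes, against 23.9% of all genes, and above them for 2, against 36% of all genes. The count of lower genes was 11 without conjugate replicate 1 (18.7% of all genes), 36 without conjugate replicate 3 (31.8% of all genes) and 11 without untreated replicate 3 (18.9% of all genes). It was 5 after quantile normalization (7.47% of all genes) and 22 with the replicate number as a block (25.5% of all genes).

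After level centring, 11 NDUF genes were lower and 14 higher, against 21.7% and 23.6% of all genes, with a median of 0.12, against 0.07 for all genes. Of the 20 genes called lower as deposited, 11 were called lower again, 8 lost the call and 1, NDUFB8, was called higher. The 11 called lower on both scales were the core subunits NDUFS1 and NDUFV2, the accessory subunits NDUFA5, NDUFA12, NDUFB3, NDUFB5, NDUFB6 and NDUFV3, and the assembly factors NDUFAF1, NDUFAF4 and NDUFAF7. After quantile normalization 8 of these 11 lost the call: NDUFS1 (-0.64, limma adjusted p = 0.085), NDUFAF1 (-0.69, adjusted p = 0.0788), NDUFAF4 (-0.47), NDUFB5 (-0.43), NDUFA5 (-0.41), NDUFB3 (-0.40), NDUFA12 (-0.31) and NDUFAF7 (-0.14). That setting gives all arrays the same distribution of differences from the baseline. Under it, bare particle against untreated rose from 0% lower and 0.0221% higher of all genes to 8.37% and 6.97%. What a lost call means there was not tested. NDUFV2, NDUFV3 and NDUFB6 were called lower under all 18 other settings of normalization, filter, model and arrays that were tried for every gene, and from bright probe sets alone.

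**Figure D1:**
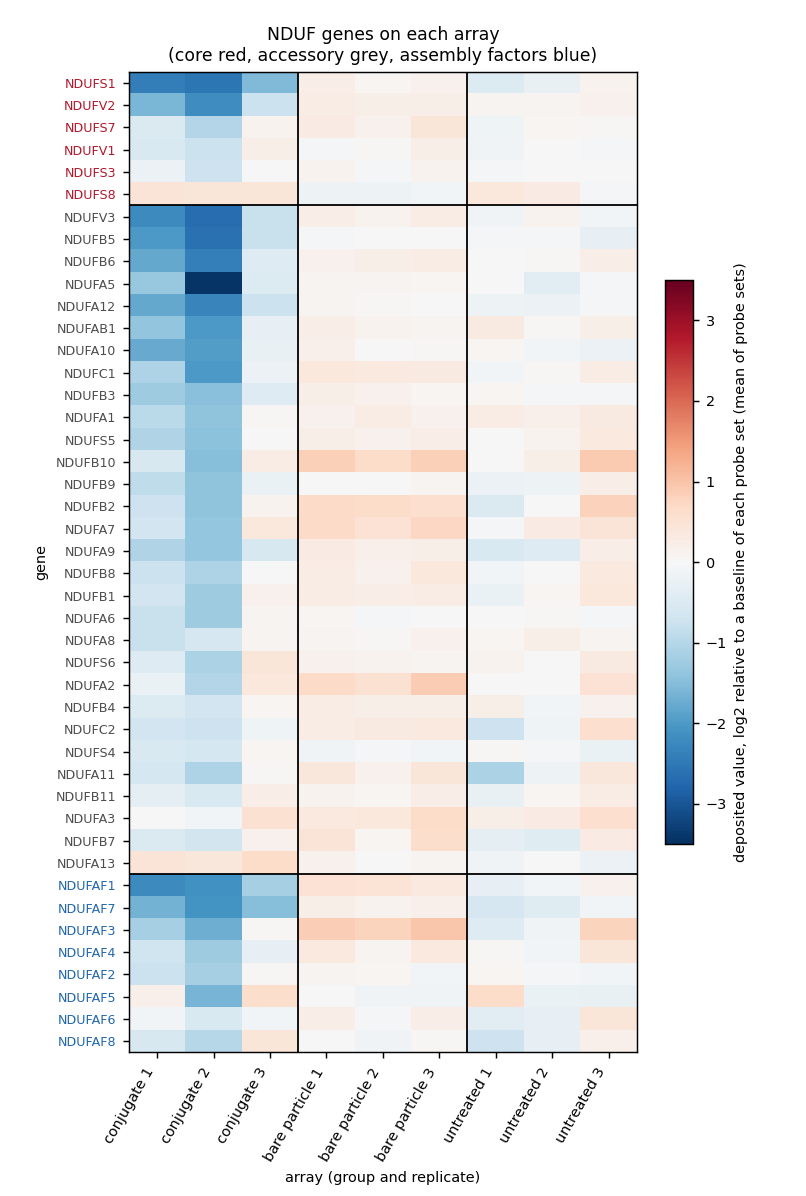
Values of the 44 NDUF genes (rows, in the order core, accessory, assembly) on each of the 9 arrays (columns, conjugate, bare particle, untreated), as colour on the log2 scale relative to each probe set's baseline. Conjugate replicate 2 holds the lowest value of 39 of the 44 genes, and conjugate replicate 3 is closer to the other groups.

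The conjugate arrays differed among themselves. The median over the 44 NDUF genes was -0.74, -1.30 and 0.04 on conjugate replicates 1, 2 and 3, against 0.22, 0.13 and 0.21 on bare particle arrays and -0.06, -0.01 and 0.19 on untreated arrays. Replicate 2 was thus the lowest and replicate 3 lay at the level of the other groups. The lowest of all 9 values was on conjugate replicate 2 for 39 of the 44 genes. In the probe sets of the members the median SD within a group was 0.714 for conjugate, 0.0995 for bare particle and 0.23 for untreated arrays, against 0.474, 0.116 and 0.181 over all probe sets. The fit takes these spreads as equal, and on data simulated with this unequal spread 161 of 307 calls were false for conjugate against untreated. That simulation changed only a small set of the 18132 genes, whereas 25.1% and 33.1% of genes were called lower and higher here. The share of false calls depends on the share of genes changed, so it cannot be carried over to these calls. After level centring the medians over the members were 0.23, 0.11 and 0.26 on the conjugate arrays, against 0.16, 0.08 and 0.16 on bare particle arrays and -0.07, -0.01 and 0.15 on untreated arrays.

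Of the 6 core subunits measured, 2 were lower with the conjugate and 0 higher, against 25.1% and 33.1% of all genes. Their median difference was -0.37 as deposited and 0.16 after level centring, where 2 were lower and 2 higher, against 21.7% and 23.6% of all genes. NDUFS1, the largest iron-sulfur subunit of the matrix arm, was at -2.42, -2.52 and -1.55 on conjugate arrays, against -0.47, -0.27 and 0.13 on untreated arrays. Its bare particle values were 0.24, 0.06 and 0.14. All conjugate arrays lay below every other array. The difference from untreated was -1.96 ± 0.26 (SE; limma adjusted p = 0.0013, n = 3 arrays per group), a 3.89-fold lower value, and -1.06 ± 0.16 after level centring (adjusted p = 0.00158). Of its 5 probe sets, 4 were called lower (-2.54 to -2.19) and the other was at -0.49 (adjusted p = 0.187).

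NDUFV2, an iron-sulfur subunit at the NADH end, was at -1.61, -2.18 and -0.76 on conjugate arrays, at 0.26, 0.20 and 0.21 on bare particle arrays and at 0.08, 0.10 and 0.16 on untreated arrays. The conjugate arrays again lay apart, with replicate 3 nearest to the rest. The difference from untreated was -1.63 ± 0.29 (limma adjusted p = 0.00321). After level centring the conjugate values drew together at -0.31, -0.39 and -0.48, against 0.08, 0.10 and 0.12 on untreated arrays, and the difference was -0.50 ± 0.11 (adjusted p = 0.00717).

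The other core subunits did not pass the test as deposited. NDUFV1, which binds the flavin and NADH, was at -0.53, -0.75 and 0.20 on conjugate arrays, against -0.13, 0.00 and -0.08 on untreated arrays. The groups overlapped, and the difference was -0.29 ± 0.23 (limma adjusted p = 0.281). After level centring it was called higher, with 0.76, 1.04 and 0.48 on conjugate arrays against -0.13, 0.00 and -0.12 on untreated arrays (0.84 ± 0.16, adjusted p = 0.0036). Its single probe set thus had opposite signs on the 2 scales, and so did NDUFS7 and NDUFS3.

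NDUFS7, which carries the last iron-sulfur cluster before ubiquinone, was at -0.51, -1.02 and 0.12 on conjugate arrays, against -0.16, 0.08 and 0.03 on untreated arrays (-0.45 ± 0.25, limma adjusted p = 0.141, level-centred 0.28, adjusted p = 0.114). NDUFS3, of the part of the matrix arm next to ubiquinone, was at -0.21, -0.74 and -0.01, against -0.08, 0.01 and -0.03 on untreated arrays (-0.29 ± 0.19, adjusted p = 0.209, level-centred 0.04, adjusted p = 0.839). In both genes conjugate replicate 2 was the lowest array and the groups overlapped. NDUFS8, an iron-sulfur subunit of the same region, was at 0.46, 0.43 and 0.42 on conjugate arrays, against 0.38, 0.29 and -0.08 on untreated arrays. Every conjugate array was above every untreated one, by a small step over untreated replicate 1, and the difference did not pass as deposited (0.24 ± 0.16, limma adjusted p = 0.202) but did after level centring (0.78 ± 0.20, adjusted p = 0.012). The mean joined a middle probe set at 1.31 (adjusted p = 0.0141) and a bright one at -0.83 (adjusted p = 0.0632), so its sign rests on which probe set is read.

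Of the 30 accessory subunits, 15 were lower with the conjugate and 1 was higher, against 25.1% and 33.1% of all genes, with a median difference of -0.76. By name, 7 of 13 NDUFA genes (NDUFAB1 among them) were lower and 1 higher, and 5 of 11 NDUFB, 1 of 2 NDUFC and 2 of 4 accessory NDUFS and NDUFV genes were lower. After level centring 6 of the 30 were lower and 10 higher (median 0.15), against 21.7% and 23.6% of all genes. NDUFV3, a subunit at the NADH end, was at -2.23, -2.68 and -0.78 on conjugate arrays, at 0.24, 0.12 and 0.25 on bare particle arrays and at -0.12, 0.12 and -0.09 on untreated arrays. The conjugate arrays were the 3 lowest, and the difference was -1.87 ± 0.39 (limma adjusted p = 0.00536; level-centred -1.57 ± 0.32, adjusted p = 0.00465). All 3 of its probe sets were called lower (-2.43, -2.25 and -0.92).

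NDUFA12, which sits in the matrix arm, was at -1.78, -2.31 and -0.75 on conjugate arrays, against -0.18, -0.20 and -0.07 on untreated arrays. The difference was -1.46 ± 0.32 (limma adjusted p = 0.00621), and -0.33 ± 0.11 after level centring (adjusted p = 0.0362). The membrane arm subunits NDUFB3, NDUFB5 and NDUFB6 were of the same kind. NDUFB5 was at -2.0, -2.60 and -0.78 on conjugate arrays, against -0.04, -0.07 and -0.29 on untreated arrays (-1.66 ± 0.37, limma adjusted p = 0.00639, level-centred -0.53). NDUFB6 was at -1.78, -2.39 and -0.45, against -0.02, 0.03 and 0.23 (-1.62 ± 0.39, adjusted p = 0.00888, level-centred -0.48). NDUFB3 was at -1.25, -1.46 and -0.46, against 0.07, -0.08 and -0.06 on untreated arrays (-1.03 ± 0.23, adjusted p = 0.00704, level-centred -0.69). In all 4 genes conjugate replicate 2 was the lowest and replicate 3 the nearest to untreated, with no overlap.

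NDUFAB1, the mitochondrial acyl carrier protein, which also serves lipoic acid synthesis, was at -1.37, -2.02 and -0.29 on conjugate arrays, against 0.33, 0.03 and 0.20 on untreated arrays (-1.41 ± 0.35, limma adjusted p = 0.00967). The groups lay apart, but the level-centred difference of -0.27 did not pass (adjusted p = 0.109). NDUFA5, a matrix arm subunit, was spread widely: its conjugate values were -1.33, -3.42 and -0.48, against 0.00, -0.36 and -0.04 on untreated arrays (-1.61 ± 0.58, limma adjusted p = 0.0363, level-centred -1.67, adjusted p = 0.043). It was called lower in 9 of the 18 other settings, and lost the call when any 1 untreated or bare particle array or conjugate replicate 1 was left out, with only the groups compared (adjusted p = 0.0758) and after quantile normalization. Conjugate replicate 2 held the lowest value of any NDUF gene there, while replicate 3 was close to untreated replicate 2. NDUFA8, with the NRF1 motif across its start site, was at -0.78, -0.59 and 0.09 on conjugate arrays, against 0.06, 0.21 and 0.10 on untreated arrays (-0.55 ± 0.21, adjusted p = 0.0482), and the groups overlapped. The level-centred difference was -0.23 and did not pass (adjusted p = 0.246), and NDUFA8 was called lower in 6 of the 18 other settings. NDUFB8, with the YY1 motif after its start, was at -0.74, -1.09 and 0.00, against -0.09, -0.01 and 0.34 on untreated arrays (-0.69 ± 0.26, adjusted p = 0.0436). Its groups overlapped too. After level centring NDUFB8 was at 0.55, 0.70 and 0.29 on conjugate arrays, against -0.09, -0.01 and 0.30 on untreated arrays, and was called higher although replicate 3 overlapped (0.45, adjusted p = 0.0424).

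NDUFA13, also known as GRIM-19 and linked to cell death and STAT3, was the single gene called higher as deposited. Its values were 0.46, 0.41 and 0.65 on conjugate arrays, 0.15, 0.00 and 0.10 on bare particle arrays and -0.13, -0.01 and -0.20 on untreated arrays, with no overlap between conjugate arrays and the rest. The difference from untreated was 0.62 ± 0.14 (limma adjusted p = 0.00776, a 1.54-fold higher value), and 0.96 ± 0.12 after level centring (adjusted p = 0.000834). It joined 5 probe sets that did not go together: 2 bright ones were at -0.89 and -0.88, and the other 3, middle or dim, at 1.92, 1.51 and 1.45, each of the 3 called higher. From its bright probe sets alone the gene was at -0.89, the opposite sign.

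The accessory subunits with the least evidence of a difference as deposited were NDUFB7, NDUFA11 and NDUFA3. NDUFB7 was at -0.50, -0.63 and 0.16 on conjugate arrays, against -0.35, -0.42 and 0.28 on untreated arrays (-0.16 ± 0.27, limma adjusted p = 0.611). NDUFA11 was at -0.62, -1.07 and 0.04, against -1.10, -0.19 and 0.40 (-0.25 ± 0.37, adjusted p = 0.558). NDUFA3 was at 0.02, -0.11 and 0.55, against 0.21, 0.30 and 0.60 on untreated arrays (-0.21 ± 0.21, adjusted p = 0.374). The groups overlapped in all 3 genes, and after level centring all 3 were called higher (0.98, 0.88 and 0.62). The 7 other accessory genes called higher after level centring were NDUFA2, NDUFA6, NDUFA13, NDUFB1, NDUFB8, NDUFB11 and NDUFS6.

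**Figure D2:**
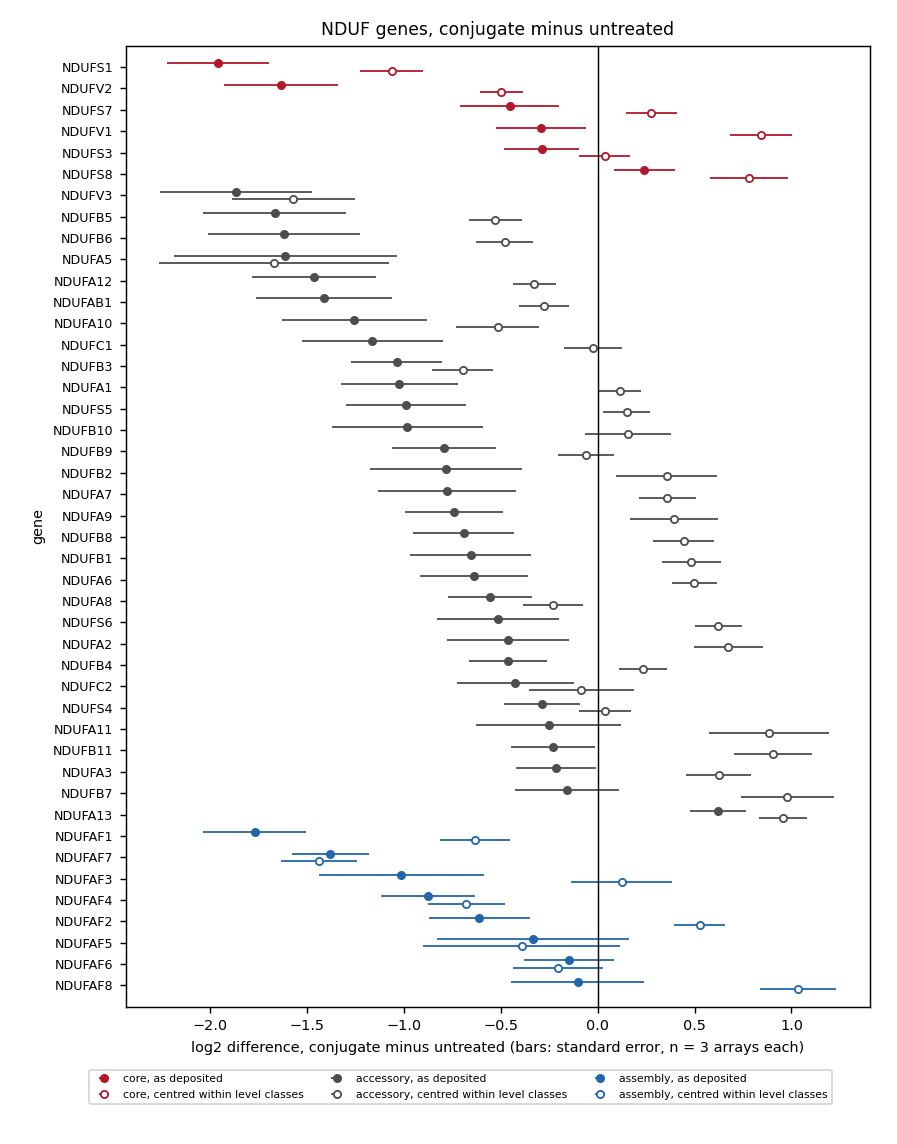
Difference between conjugate and untreated arrays (log2, x axis) of each NDUF gene (y axis, grouped by role), as deposited and after level centring, with bars of 1 SE. The deposited values lie left of 0 for 42 of the 44 genes, and the level-centred ones spread to both sides.

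Of the 8 assembly factors, 3 were lower with the conjugate and 0 higher, against 25.1% and 33.1% of all genes. All 8 differences were negative (median -0.74), against 7305 of all 18132 genes. After level centring 3 were lower and 2 higher (median -0.30), against 21.7% and 23.6% of all genes, so the share higher was near that of all genes. NDUFAF1, a scaffold for building the membrane arm, was at -2.23, -2.12 and -1.16 on conjugate arrays, at 0.52, 0.49 and 0.35 on bare particle arrays and at -0.28, -0.09 and 0.16 on untreated arrays. The 3 conjugate arrays were well below the rest, and the difference from untreated was -1.77 ± 0.27 (limma adjusted p = 0.00188; level-centred -0.63 ± 0.18, adjusted p = 0.0194). NDUFAF7, a mitochondrial methyltransferase needed for assembly, was at -1.65, -2.09 and -1.48, at 0.19, 0.14 and 0.18 with bare particles and at -0.58, -0.43 and -0.09 in untreated cells. The groups did not overlap, all 3 of its probe sets were called lower, and the differences were close as deposited and level-centred (-1.38 ± 0.20, limma adjusted p = 0.0016, and -1.44 ± 0.20 level-centred, adjusted p = 0.00101). After quantile normalization it was -0.14 and did not pass (adjusted p = 0.716).

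NDUFAF4, which helps build the ubiquinone end together with NDUFAF3, was at -0.69, -1.24 and -0.30 on conjugate arrays, against 0.05, -0.08 and 0.43 on untreated arrays (-0.87 ± 0.24, limma adjusted p = 0.0146, level-centred -0.68, adjusted p = 0.0203). NDUFAF3 was at -1.16, -1.71 and 0.04, against -0.45, -0.12 and 0.78 on untreated arrays (-1.01 ± 0.43, adjusted p = 0.0626, level-centred 0.12, adjusted p = 0.716). It was lower on each conjugate array than on the untreated array of the same number. With the replicate number as a block it was called lower (limma adjusted p = 0.0198), though the sample titles do not say that equal numbers mark pairs. NDUFAF2, a relative of NDUFA12 that acts late in assembly, was at -0.76, -1.16 and 0.03, against 0.07, -0.03 and -0.09 (-0.61 ± 0.26, adjusted p = 0.0662, level-centred 0.53, adjusted p = 0.0112). The groups overlapped in NDUFAF3 and NDUFAF2, and both changed sign with centring.

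NDUFAF5, which hydroxylates NDUFS7, was at 0.18, -1.63 and 0.61 on conjugate arrays, against 0.65, -0.22 and -0.27 on untreated arrays (-0.33 ± 0.49, limma adjusted p = 0.562, level-centred -0.39). NDUFAF8, its partner, was at -0.56, -1.01 and 0.42, against -0.73, -0.30 and 0.18 (-0.10 ± 0.34, adjusted p = 0.801). NDUFAF6 was at -0.11, -0.52 and -0.08, against -0.39, -0.30 and 0.41 (-0.15 ± 0.23, adjusted p = 0.589, level-centred -0.20). These 3 genes overlapped between the groups. NDUFAF8 was called higher after level centring, at 0.74, 0.78 and 0.71 on conjugate arrays against -0.73, -0.30 and 0.14 on untreated arrays (1.03 ± 0.20, adjusted p = 0.00357). NDUFAF6 joined 4 middle probe sets, of which 2 were called lower (-1.58 and -1.21) and 1 higher (1.73).

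With bare particles, 0 of the 44 genes were called lower or higher against untreated cells (limma, smallest adjusted p = 0.864), against 0% of all genes called lower and 0.0221% called higher. At an unadjusted p under 0.05 there was 1 of the 44 genes, NDUFAF7 (0.54 ± 0.20), against 972 of all 18132 genes, so this is no result about the members. Array weights gave 1 lower and 20 higher, against 22.5% and 18.7% of all genes under that setting, and quantile normalization 5 higher, against 6.97% of all genes. The members' median was 0.17, against -0.06 for all genes, and 36 of the 44 differences were positive, against 7437 of all 18132 genes. The 3 bare particle arrays lay above all untreated arrays for 11 members, against 12.4% of all genes, and below them for 1, NDUFS8, against 21.5% of all genes. The largest differences were those of NDUFAF3 (0.81 ± 0.43), NDUFA11 (0.62 ± 0.37) and NDUFAF7, none of which passed. After level centring 0 members were called, against 0% and 0.0331% of all genes.

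Against bare particles, 30 NDUF genes were lower with the conjugate and 2, NDUFS8 and NDUFA13, were higher (limma), against 29.1% and 43.2% of all genes. The lower genes were 3 core, 22 accessory and 5 assembly genes. The conjugate arrays lay below all bare particle arrays for 30 members, against 30.5% of all genes, and above them for 2, against 45.9%. The median difference was -0.92. NDUFS1 differed by -2.31 ± 0.26 (limma adjusted p = 0.000373) and NDUFAF7 by -1.91 ± 0.20 (adjusted p = 0.000267). NDUFS8 was at 0.46, 0.43 and 0.42 with the conjugate and at -0.19, -0.17 and -0.09 with bare particles (0.59 ± 0.16, adjusted p = 0.00888). Of the 20 genes lower than in untreated cells, 19 were also lower than with bare particles, NDUFA8 being the exception. The 2 comparisons share the conjugate arrays. After level centring 12 members were lower and 9 higher than with bare particles, against 26.5% and 30.9% of all genes (median -0.09).

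Where a probe set stood in baseline level went with its difference. The members were brighter than the array as a whole: 62 of the 92 probe sets (67.4%) were bright, against 17.7% of all probe sets, 21 middle and 7 dim. Over the 92 probe sets 44 were called lower and 8 higher, against 23.7% and 24.9% of all probe sets. Of the bright member probe sets 31 of 62 were called lower and 0 higher, against 60.9% and 7.1% of all bright probe sets. Of the 21 middle ones 12 were lower and 4 higher, against 25.3% and 25.7%. Of the 7 dim ones 0 were lower and 4 higher, against 0.607% and 33.8%. After level centring 10 bright member probe sets were lower and 16 higher, against 28.4% and 27.4% of all bright ones, 12 middle ones lower and 4 higher, against 26.4% and 23.7%, and 0 dim ones lower and 2 higher, against 5.45% and 8.41%. As deposited, bright members were called lower no more often than bright probe sets in general, while the middle members had a median of -1.03, against 0.12 for all middle probe sets.

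**Figure D3:**
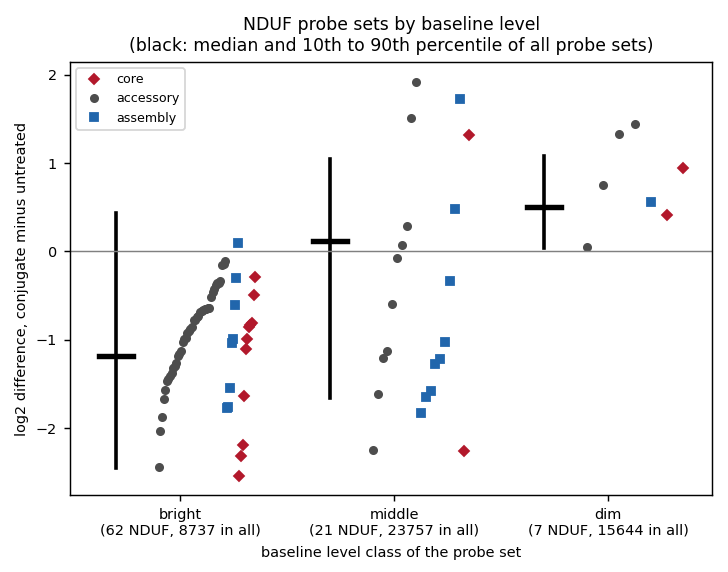
Difference between conjugate and untreated arrays (log2, y axis) of the member probe sets that fell in a level class (x axis, bright, middle, dim), with the median and outer deciles of all probe sets of the class in black. Nearly all bright members lie between the deciles of their class, and most middle members lie below the median of theirs.

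Probe sets of 1 gene often disagreed. Of the 26 genes with more than 1 probe set, 13 had a spread over 1 on the log2 scale, and 4 (NDUFA8, NDUFAF6, NDUFS4 and NDUFS7) had probe sets called in both directions. NDUFA8 had a bright probe set at -2.44 ± 0.50 (adjusted p = 0.00553) and a dim one at 1.33 ± 0.32 (adjusted p = 0.00905, limma over all probe sets). NDUFS4 had a bright one at -1.32 and a dim one at 0.75. NDUFS7 had 2 bright probe sets called lower, at -0.85 and -1.10, and a dim one called higher, at 0.94. In these 3 genes the called-lower probe sets were bright and the called-higher ones dim.

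Gene length went with the difference over the members. The Spearman correlation of RefSeq gene span with the difference between conjugate and untreated was -0.38 as deposited and -0.59 after level centring (44 genes that share all arrays, a description only). It was not computed over all genes, so whether it is particular to the members was not tested. The median span was 22854 bases for the 11 genes lower on both scales (8577 to 64655). It was 5791.5 bases for the 14 called higher after level centring (2000 to 207822) and 11678 bases for the other 19 (2438 to 222698). The ranges thus overlapped. Promoter GC content had a correlation of -0.07 as deposited and 0.01 after level centring over 39 genes.

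Genes around complex I were counted in the same fit, where 25.1% of all genes were called lower and 33.1% higher. Of 12 assembly factors without an NDUF symbol, 5 were lower and 0 higher, among them TMEM186 (-0.99 ± 0.17, limma adjusted p = 0.00294) and TMEM70, which also serves ATP synthase assembly (-1.78 ± 0.38, adjusted p = 0.00561). The mitochondrially coded subunits ND1 and ND4 moved the other way from most nuclear members. ND1 was at 1.48, 1.37 and 0.83 on conjugate arrays, against -0.17, 0.00 and 0.28 on untreated arrays (1.19 ± 0.21, adjusted p = 0.00295). ND4 was at 0.65, 0.60 and 0.79, against -0.10, 0.02 and 0.00 (0.71 ± 0.15, adjusted p = 0.00508). Both lay above untreated on every conjugate array and were called higher after level centring too. Each rests on 1 probe set, and nuclear copies of mitochondrial DNA make its source uncertain.

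Other respiratory lists were counted against the same 25.1% of all genes called lower. Complex II had 3 of 3 genes lower (SDHC -1.28 and SDHA -1.13), complex IV 6 of 10 and ATP synthase 11 of 15, while complex III had 2 of 8, near that share, and 0 were higher in any. The NDUF median of -0.72 stood beside medians of -1.13 for complex II, -0.57 for complex III, -0.65 for complex IV, -1.22 for ATP synthase and 0.25 for all genes. After level centring 21.7% of all genes were lower and 23.6% higher. Complex II then had 2 of 3 lower and 0 higher (median -0.50) and complex III 0 lower and 2 of 8 higher, near that share. Complex IV had 0 lower and 4 of 10 higher and ATP synthase 1 lower and 5 of 15 higher. Of 11 nuclear regulators of mitochondrial genes, 6 were lower and 1 higher (median -1.28), and after level centring 7 were lower and 1 higher (median -0.74). TFB1M, which methylates mitochondrial ribosomal RNA, was at -2.91, -2.15 and -2.09 on conjugate arrays, against 0.16, -0.19 and -0.37 on untreated arrays (-2.25 ± 0.24, limma adjusted p = 0.000689, level-centred -2.31). YY1, whose motif lies in promoters of 7 NDUF genes, was at -1.61, -1.54 and -1.03, against 0.36, 0.15 and 0.43 (-1.70 ± 0.18, limma adjusted p = 0.000725, level-centred -1.08). PPARGC1B was higher (0.63 ± 0.20, adjusted p = 0.0258). Promoters were found for 10 genes lower on both scales, 14 higher after level centring and 15 others. Over these 3 sets in that order the YY1 motif was in a promoter of 0, 3 and 4 genes. The NRF1 motif was in 1, 1 and 4 and the ETS motif in 2, 3 and 2, and these counts were not tested.

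**Figure D4:**
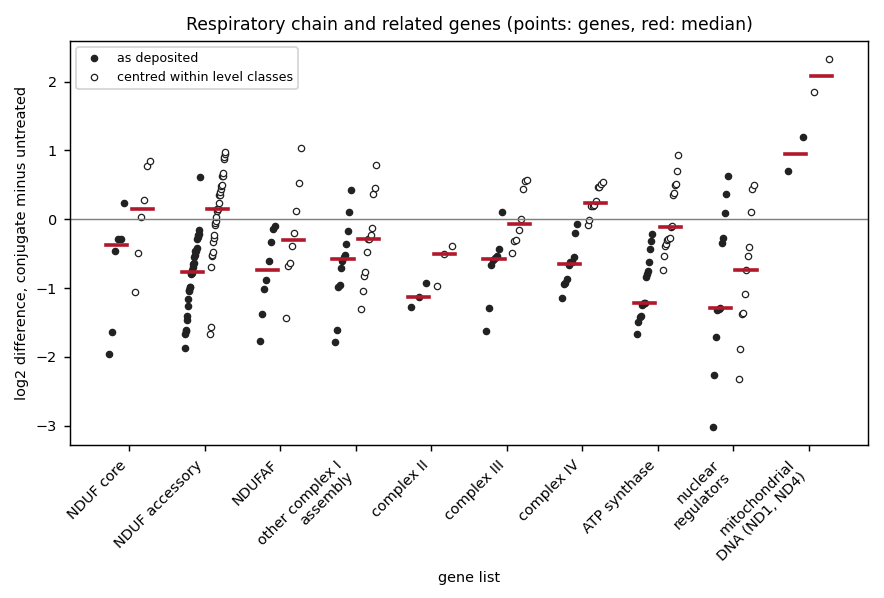
Difference between conjugate and untreated arrays (log2) of the genes of each list (1 point per gene), with the list median. The NDUF genes, complexes II to IV and ATP synthase have medians below 0, and ND1 and ND4 lie above it.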

How the data were processed

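Expression was measured on 9 Affymetrix PrimeView arrays of Y79 cells, 3 per group. The deposited matrix holds a value for every probe set and array. The deposited values look like log values (log2 assumed) set against a baseline that differs by probe set, and 59.7% of probe sets have an exact 0 on at least 1 array. How the authors summarized probes, which log base they used and what the baseline is are not given in the sources used here. Probe sets were named from GEO's platform annotation. After 102 array controls were dropped from the 49395 probe sets, 49293 were tested, of which 44988 had 1 symbol, 1832 several and 2473 none. The members and the gene lists were chosen with earlier results of these data known. Values on every array are given for the core subunits, the assembly factors, the 6 accessory subunits with the smallest adjusted p lower, up to 3 higher and the 3 with the largest p. NDUFA5, NDUFA8 and NDUFB8 were added after their values were seen. Of other lists, up to 2 lower and 2 higher genes with the smallest adjusted p are named.

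Single-symbol probe sets were averaged per gene. All 9 arrays entered one fit with limma 3.58.1 in R 4.3.3 (lmFit and eBayes, 2-sided), with data.table (version 1.17.8), and p-values were adjusted by Benjamini-Hochberg over all 18132 genes, or all 49293 probe sets, at 0.05. Errors are SE of the log2 difference unless SD is written. The number of arrays limits the precision. An exact permutation test of 3 against 3 arrays cannot go below 0.1. Level classes (baseline 2 to 4, 4 to 8 and 8 to 16) were read from the untreated and bare particle arrays and were right for 93.7% of simulated numbers. On simulated data with a small set of changed genes, the fit found 54% of changes of log2 1 and 92% of changes of log2 2 for conjugate against untreated. These shares may differ where more genes change. Promoters were searched with Python 3.11.15, pandas 2.3.3 and numpy 2.4.6.

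Replicate numbers come from the sample titles. The titles do not say that equal numbers mark pairs. Deviations from the group means of same-numbered conjugate and untreated arrays correlated at 0.16, 0.11 and 0.29 over genes, which leaves a pairing uncertain. The main fit held no replicate term, and the replicate number entered only as a block in a separate setting. For bare particle with untreated arrays the correlations were -0.04, 0.00 and 0.07, and for conjugate with bare particle arrays -0.06, 0.10 and 0.01.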

Additional observations from a re-analysis of the deposited data

How the results depend on the processing

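Counts of called NDUF genes with the conjugate depended on the scaling. Against untreated cells there were 20 lower and 1 higher with a median of -0.72 (25.1% and 33.1% of all genes). These became 5, 1 and -0.28 after quantile normalization (7.47% and 3.15%) and 11, 14 and 0.12 after level centring (21.7% and 23.6%). With only the 2 groups compared they were 11 and 1 (18.5% and 17%), and without dim probe sets 23 and 0 (35.1% and 24.9%). Array weights gave 39 and 3 (37.8% and 52.9%), and that fit gave a convergence warning. Leaving out 1 array gave 11 to 36 lower, against 18.7% to 31.8% of all genes. Against bare particles, 30 lower, 2 higher and -0.92 (29.1% and 43.2% of all genes) became 12, 9 and -0.09 after level centring (26.5% and 30.9%). The count higher was 1 under quantile normalization, median centring, no dim probe sets and only the groups compared (27.9% to 37% of all genes). With 1 array left out, 22 to 40 were lower (24.9% to 34% of all genes) and 1 to 2 higher (34.3% to 49%). Bare particles against untreated gave 5 higher with a median of 0.41 after quantile normalization (6.97% of all genes). Array weights gave 1 lower and 20 higher there (22.5% and 18.7% of all genes). Member probe sets, 44 lower and 8 higher, became 11 and 3 after quantile normalization and 23 and 22 after level centring. The replicate block gave 22 lower and added calls for NDUFB10 and NDUFAF3 but changed no other call between conjugate and untreated. The cause of these shifts was not tested.

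For settings added after seeing the data, counts lower, counts higher and medians are given for conjugate against untreated and then against bare particles. Shares of all genes in the fit, lower and higher, are in brackets. Bright probe sets only gave 0 higher in both (57.8% lower and 7.88% higher, then 63.4% and 11.4%). The medians of all genes there were -1.13 and -1.25. Of the 40 members measured, 4 gained a call against untreated, 2 lost it and 2 turned in sign. The members' counts lower and medians are not given for this setting. Level-centred bright probe sets gave 7, 13 and 0.18 (29.8% and 32.1%), then 8, 8 and 0.0049 (33.8% and 32.3%). Level centring without conjugate replicate 3 gave 13, 15 and 0.088 (27.8% and 32.5%), then 12, 12 and -0.087 (30.7% and 36.3%). Without untreated replicate 3 it gave 6, 16 and 0.24 (16.9% and 14.3%), then 14, 10 and -0.086 (26.7% and 29.9%). There 1 gene was higher with bare particles than in untreated cells (0.243% higher).

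Direction of the conjugate minus untreated difference turned after level centring in NDUFS3 0.036, NDUFS7 0.28, NDUFV1 0.84, NDUFA1 0.11, NDUFA11 0.88, NDUFA2 0.68, NDUFA3 0.62, NDUFA6 0.50, NDUFA7 0.36, NDUFA9 0.40, NDUFB1 0.48, NDUFB10 0.16, NDUFB11 0.91, NDUFB2 0.36, NDUFB4 0.23, NDUFB7 0.98, NDUFB8 0.45, NDUFS4 0.038, NDUFS5 0.15, NDUFS6 0.62, NDUFAF2 0.53, NDUFAF3 0.12 and NDUFAF8 1.03. After quantile normalization it turned in NDUFS3 0.0014, NDUFV1 0.056, NDUFA11 0.28, NDUFA9 0.065, NDUFB7 0.32, NDUFS4 0.11, NDUFAF5 0.19, NDUFAF6 0.17 and NDUFAF8 0.45. With array weights it turned in NDUFAF5 0.32 and NDUFAF6 0.15. With 1 array left out, NDUFA11 ran from -0.65 to 0.094, NDUFB7 from -0.40 to 0.062, NDUFAF5 from -0.78 to 0.34, NDUFAF6 from -0.30 to 0.11 and NDUFAF8 from -0.50 to 0.21, turning without conjugate replicate 2 or untreated replicate 3. From bright probe sets alone it turned in NDUFS8 -0.83 and NDUFA13 -0.89, and against bare particles in NDUFS8 -0.75 and NDUFA13 -1.18.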
